A study of Homo sapiens with 15 samples.

Results

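The 10 genes described here are EEF1A1, EEF1B2, EEF1D, EEF1G, EEF2, TPT1, NPM1, PABPC1, NACA and RACK1, which encode translation elongation factors and proteins that bind RNA, ribosomes or nascent chains, and which belong to the non-ribosomal part of the TOP class of mRNAs. They were chosen by name and matched by Ensembl identifier, 10 of the 47634 gene identifiers in each count table, and all 10 were among the 11113 genes that passed the filter on low counts. The cells were IGROV-CP20, a human ovarian cancer line with acquired resistance to cisplatin, and RNA was profiled by 3′ end sequencing, which counts reads near the polyadenylated end of each transcript. The study asked which transcripts change when FDA-approved drugs overcome the cisplatin resistance that depends on the copper transporter ATP7B. There were 5 conditions with 3 biological replicates each, 15 libraries in all. Cells of the first condition were left untreated, and those of a second received cisplatin alone (50 µM, 24 h), which the study used as its control for the drugs. Each of the remaining conditions received Amphotericin B, Telmisartan or Tranilast (10 µM, 24 h) before the same dose and time of cisplatin. All conditions come from the same resistant line, no drug was given without cisplatin, and the drug arms differ from cisplatin alone by an added day of treatment as well as by the drug.

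TOP mRNAs begin with a cytidine at the cap followed by an unbroken run of pyrimidines, the 5′ terminal oligopyrimidine tract. The kinase complex mTORC1 and the cap-binding protein LARP1 control how efficiently such mRNAs are translated and how long they are kept, so the class, which includes nearly all ribosomal protein mRNAs, can be adjusted together with growth and nutrient supply. EEF1A1 carries aminoacyl-tRNA to the ribosome, EEF1B2, EEF1D and EEF1G form the exchange complex that reloads it with GTP, and EEF2 moves the ribosome along the mRNA. PABPC1 binds the poly(A) tail, NACA is the alpha subunit of the nascent polypeptide-associated complex, RACK1 is a scaffold on the small ribosomal subunit, NPM1 is a nucleolar chaperone of ribosome assembly, and TPT1 is the translationally controlled tumor protein.

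The annotated starts show the tract that names the class. Of the 10 genes, 8 had an entry in the RefSeq start-site table on GRCh38.p14, and the sequences below run from 10 bases before the annotated start to 19 bases beyond it, 30 bases in all, with the C at the start and the pyrimidines that follow it without a break in capitals.
EEF1A1: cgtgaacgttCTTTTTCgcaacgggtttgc
EEF1B2: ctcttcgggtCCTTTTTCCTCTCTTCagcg
EEF2: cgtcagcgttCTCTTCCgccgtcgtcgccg
TPT1: ctgagtcggcCTTTTCCgcccgctcccccc
NPM1: agcctgcgtcCTTTCCCTggtgtgattccg
NACA: ctcgctcggtCTTTCTgccgccatcttggt
RACK1: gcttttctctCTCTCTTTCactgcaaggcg
EEF1G: cgggcggcttactttgcggcagcgccgaga
A tract was counted where the first transcribed base was C and at least 4 pyrimidines followed, on the gene's own strand. By that definition 7 of the 8 genes had one at an annotated start, and it was 16 bases long in EEF1B2, 9 in RACK1, 8 in NPM1, 7 in EEF1A1, EEF2 and TPT1 and 6 in NACA. EEF1G is shown as the exception, because its annotated start is an A. EEF1B2 and NPM1 each had another annotated start without a tract, and EEF1D and PABPC1 had no entry. In the whole table, 4.07% of 35116 start windows met the definition. Because the 10 genes were chosen as TOP mRNAs, the tracts describe them and are not a finding. The printed windows lie at chr6:73521013-73521042 for EEF1A1, chr2:206159885-206159914 for EEF1B2, chr19:3985444-3985473 for EEF2, chr13:45341164-45341193 for TPT1, chr5:171387839-171387868 for NPM1, chr12:56725280-56725309 for NACA, chr5:181243887-181243916 for RACK1 and chr11:62573872-62573901 for EEF1G, with EEF1B2 and NPM1 on the plus strand and the others on the minus strand.

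Total counts per library ran from 1510620 to 3517041. Mitochondrial ribosomal RNA, summed over MT-RNR1 and MT-RNR2, took 1.79% to 2.20% of the counts in untreated cells and 2.10% to 2.53% in the Tranilast libraries. It took 3.41% to 13.7% in the cisplatin libraries, 3.61% to 12.9% in those of Telmisartan and 12.3% to 14.8% in those of Amphotericin B. Replicate 1 of cisplatin, at 13.7%, and replicate 3 of Telmisartan, at 3.61%, stood apart from the others of their condition. Of 8 ovarian and epithelial markers, EPCAM (11.2 to 43.4 CPM), KRT8 and KRT18 (84.0 to 209 CPM) were present in every library. PAX8, WT1 and KRT7 never exceeded 1 count. All marker levels here are TMM-scaled CPM, counts scaled to the library total multiplied by the TMM factor described below. The leukocyte marker CD3E and the endothelial markers VWF and CDH5 were at 0 in all libraries, 3 fibroblast markers summed to 17.1 to 43.9 CPM and 3 hepatocyte markers to at most 12.03 CPM. The 5 leukocyte markers summed to 65.6 to 79.2 CPM in untreated cells and 4.77 to 22.8 CPM in the treated conditions, nearly all of it from PTPRC, and the part of this in the results below was not tested.

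The 10 genes together took between 1.01% and 1.32% of all counts in every library, a span of less than 1.5 times. The median share was lowest in the Tranilast libraries, at 1.09%, and highest in those of Amphotericin B, at 1.26%, and untreated cells, cisplatin and Telmisartan had 1.12%, 1.13% and 1.20%. The levels and differences below, like the marker levels above, are scaled by TMM factors, which set the bulk of genes level between libraries. Levels are given as TMM-scaled CPM. On this scale the genes spread more than their raw shares do. Fewer cells, less RNA per cell and a change in the rest of the RNA cannot be told apart in these bulk libraries.

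EEF1A1 and EEF1G had low counts and share sequence or exons with other gene models. EEF1A1 had 241 to 557 counts per library, and its 38 processed pseudogenes in the tables held between 2.14% and 10% of its own count. EEF1G had 5 to 15 counts per library, and its 8 pseudogenes in the tables held between 0% and 117% of its own count. Of its 2716 exon bases in GENCODE 29, 99.9% are shared with AP002990.1, a protein-coding readthrough gene model on the same strand, and AP002990.1 was at 0 in every library. How the authors' counting treated reads that match several places or several genes is not given in the sources used here, so the levels of EEF1A1 and EEF1G are uncertain and EEF1G counts allow little precision. The other 8 genes had between 585 and 8518 counts per library. Among them, EEF1B2 overlaps NDUFS1 on the opposite strand and NACA overlaps PRIM1 on its own strand, genes whose counts reached at most 9.16% and 7.34% of those of EEF1B2 and NACA.

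**Figure D1:**
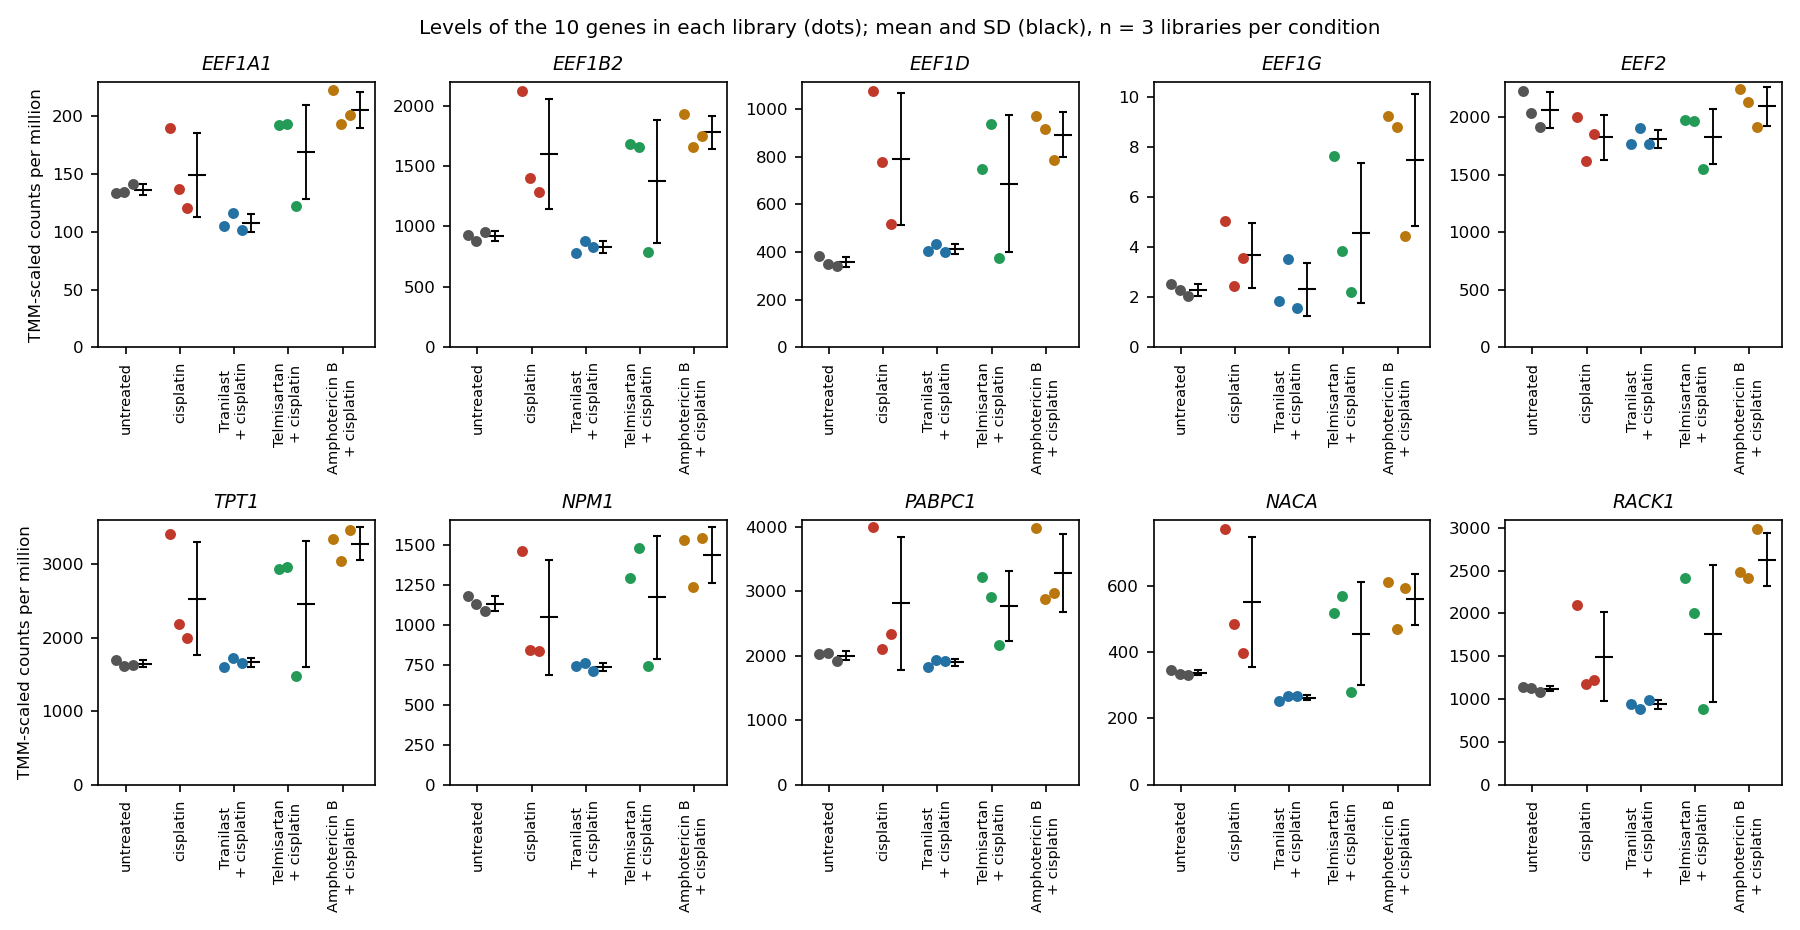
Level of each of the 10 genes as TMM-scaled CPM (vertical axes, from 0) in the 5 conditions, with a dot for each library and the mean and SD of 3 libraries in black. For genes other than EEF1G the 3 untreated libraries lie close to each other, and so do the 3 Tranilast libraries. The highest cisplatin dot is replicate 1 and the lowest Telmisartan dot is replicate 3 for every gene, and EEF2 keeps between 1552 and 2245 in all 15 libraries.

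The first comparison asks how cisplatin alone changed the genes in cells that resist it. EEF1D, EEF1B2 and NACA rose, by 2.22-fold, 1.74-fold and 1.63-fold, and no member fell. All genes tested give the background for this count, with 21.1% called higher and 23.6% called lower, against 3 and 0 of the 10 genes. The median difference of the 10 genes was 0.56 on the log2 scale, against -0.01 for all genes tested, and 0.23 without replicate 1 of cisplatin.

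EEF1D, the delta subunit of the exchange complex, was at 381, 350 and 339 CPM in untreated cells and at 1074, 779 and 519 CPM with cisplatin. Every cisplatin library was above every untreated library, and the cisplatin libraries differed from each other by more than the untreated ones did. The log2 fold change was 1.15 ± 0.28 (SE, n = 3 per condition, adjusted p = 0.00330), and it passed the threshold under each of the 29 alternative fits. EEF1B2, the beta subunit, was at 926, 877 and 956 CPM in untreated cells and 2123, 1403 and 1282 CPM with cisplatin. Its groups did not overlap either, with a log2 fold change of 0.80 ± 0.26 (adjusted p = 0.0176). NACA, which shields nascent chains as they leave the ribosome, was at 346, 335 and 331 CPM in untreated cells and 772, 483 and 396 CPM with cisplatin, a log2 fold change of 0.70 ± 0.25 (adjusted p = 0.0308). In all of these genes replicate 1 of cisplatin was the highest library. Without it, 1 of the 10 genes was called higher, EEF1D, and without replicate 1 or replicate 2 of the untreated cells the count was 1 as well.

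The other 7 genes did not pass the test. TPT1 was at 1696, 1610 and 1628 CPM in untreated cells and 3410, 2179 and 1999 CPM with cisplatin, groups that did not overlap, with a log2 difference of 0.62 ± 0.26 (adjusted p = 0.0590). PABPC1 and RACK1 also lay higher in every cisplatin library than in any untreated one, with log2 differences of 0.49 (adjusted p = 0.116) and 0.42 (adjusted p = 0.261). Counting these, 6 of the 10 genes had cisplatin libraries entirely above the untreated ones, against 24% of all genes tested. EEF1G had a log2 difference of 0.66 with an interval from -0.45 to 1.78, and EEF1A1 one of 0.13 with an interval from -0.29 to 0.54. EEF2 and NPM1 had differences of the other sign that did not pass either. EEF2, the translocase, was at 2227, 2035 and 1919 CPM in untreated cells and 2002, 1617 and 1858 CPM with cisplatin, a log2 difference of -0.17 with a 95% interval from -0.57 to 0.22 (adjusted p = 0.472). NPM1 was at 1181, 1133 and 1087 CPM in untreated cells and at 1463, 845 and 838 CPM with cisplatin, so replicate 1 lay above the untreated libraries and the others below them.

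The choice of scale and the mitochondrial ribosomal RNA both move with this result. With library size alone as the scale, the median of all genes shifted to -0.36 and 1 of the 10 genes was called higher and 2 lower, while the median of the 10 genes stood 0.51 above that of all genes. After adjustment for mitochondrial ribosomal RNA, 1 was called higher and 1 lower and the median of the 10 genes was 0.06. The share was 3.41% to 13.7% with cisplatin and 1.79% to 2.20% in untreated cells. These ranges do not overlap, so the adjusted fit cannot fully separate cisplatin from the share. In the cisplatin condition the library with the highest share of mitochondrial ribosomal RNA, replicate 1, was the highest for all 10 genes.

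**Figure D2:**
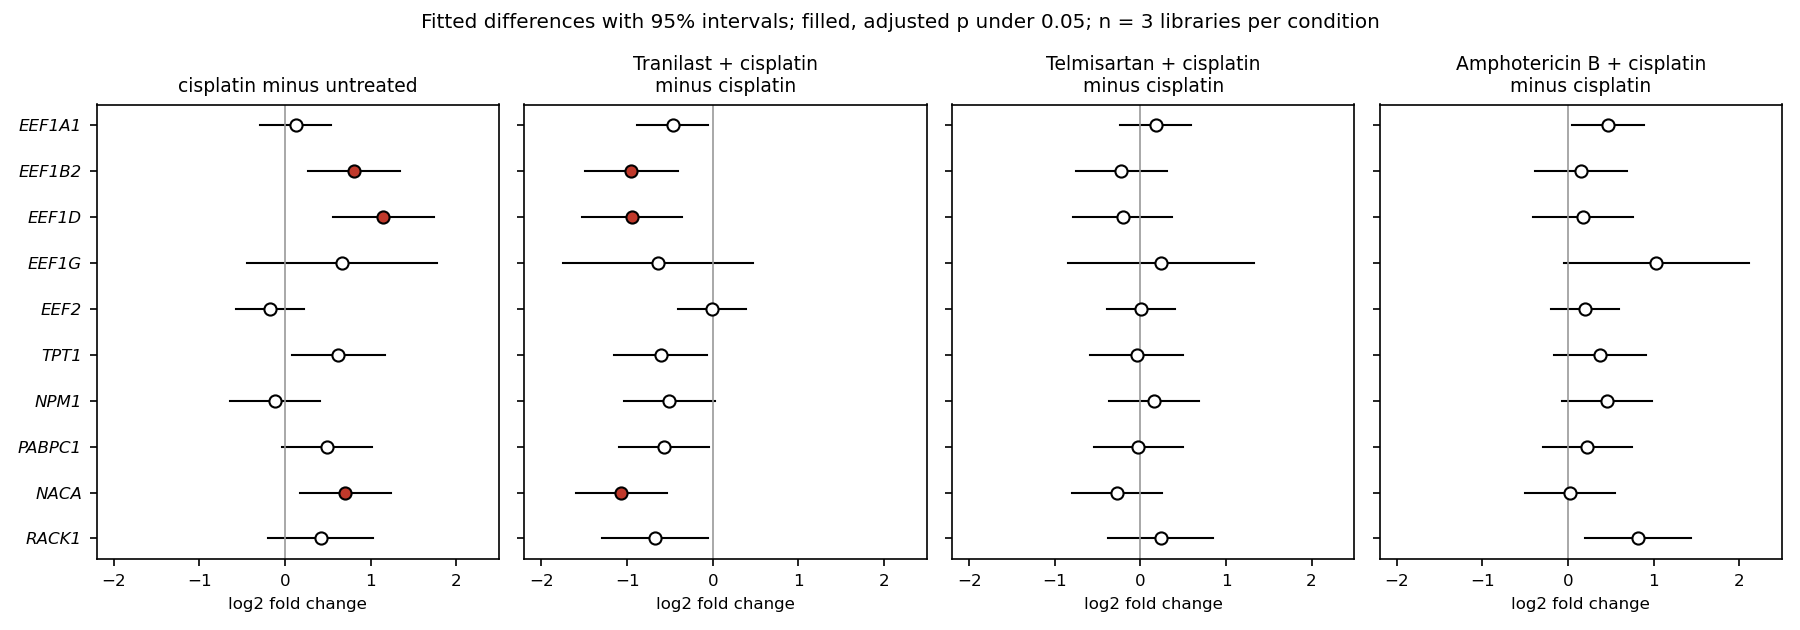
Fitted log2 fold change of each gene (horizontal axes) in the 4 main comparisons, with 95% intervals from the quasi-likelihood fit and filled circles for adjusted p under 0.05. EEF1D, EEF1B2 and NACA are filled to the right with cisplatin and to the left with Tranilast, and no gene is filled in the Telmisartan and Amphotericin B panels.

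The second comparison asks what Tranilast, an antiallergic drug, changed beyond cisplatin alone. NACA, EEF1B2 and EEF1D fell, to 0.478-fold, 0.518-fold and 0.522-fold of their cisplatin level, and no member rose. Of all genes tested, 11.6% were called lower and 10.5% higher, against 3 and 0 of the 10 genes. The median difference of the 10 genes was -0.62 on the log2 scale, against 0.02 for all genes. It was -0.33 without replicate 1 of cisplatin and -0.11 after adjustment for mitochondrial ribosomal RNA. Every Tranilast library had a lower share of that RNA than every cisplatin library, so this adjustment cannot fully separate the drug from the share. The cisplatin libraries are the same as in the first comparison, so a high cisplatin value enters both with opposite sign.

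NACA was at 253, 267 and 267 CPM with Tranilast, below the lowest cisplatin library at 396 CPM, with a log2 fold change of -1.07 ± 0.25 (SE, n = 3 per condition, adjusted p = 0.00786). It is the member that stayed past the threshold under each of the 29 alternative fits. EEF1B2 was at 776, 878 and 834 CPM, again below every cisplatin library, with a log2 fold change of -0.95 ± 0.26 (adjusted p = 0.0151). EEF1D was at 403, 435 and 399 CPM, against 519 CPM in the lowest cisplatin library, with a log2 fold change of -0.94 ± 0.28 (adjusted p = 0.0231). The Tranilast libraries were close to each other in all these genes.

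Every member except EEF2 and EEF1G had Tranilast libraries entirely below the cisplatin ones, 8 of 10, against 18.9% of all genes tested. Of these, RACK1 had a log2 difference of -0.68 (adjusted p = 0.104), TPT1 -0.60 (adjusted p = 0.0981), PABPC1 -0.57 (adjusted p = 0.105), NPM1 -0.51 (adjusted p = 0.153) and EEF1A1 -0.47 (adjusted p = 0.0960), none past the threshold. EEF2 was at 1767, 1903 and 1767 CPM with Tranilast and thus within the range of the cisplatin libraries, with a log2 difference of -0.01 and an interval from -0.41 to 0.39 (adjusted p = 0.977). Without replicate 1 of cisplatin 1 of the 10 genes was called lower, NACA. Without replicate 3 of Telmisartan, which is not in this comparison but shares the estimate of the spread, 6 were. Leaving out single Tranilast libraries gave 1 or 2. With library size alone, where the median of all genes was 0.46, 2 genes were called lower and EEF2 was called higher.

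The comparison of Telmisartan, a blocker of the angiotensin receptor, with cisplatin alone called none of the 10 genes and none of the 11113 tested, 0% in either direction. Log2 differences ran from -0.27 for NACA to 0.24 for EEF1G, with a median of -0.01, which became 0.32 without replicate 1 of cisplatin and 0.17 without replicate 3 of Telmisartan. None of the 10 genes had an unadjusted p under 0.05. The intervals leave room for sizeable differences in both directions, such as -0.80 to 0.25 for NACA and -0.38 to 0.85 for RACK1. Replicates 1 and 2 and replicate 3 of Telmisartan lay far apart. RACK1, for example, was at 2417, 1999 and 879 CPM, and TPT1 at 2938, 2957 and 1473 CPM. Replicate 3, which had the lowest share of mitochondrial ribosomal RNA in its condition, was the lowest Telmisartan library for all 10 genes. Over all genes, 244 were called lower and 301 higher without replicate 1 of cisplatin, of 11332 tested. Without that library and replicate 3 of Telmisartan, a pair left out after seeing the data, 1408 were lower and 1393 higher, of 11260.

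Amphotericin B, an antifungal that binds membrane sterols, followed by cisplatin gave no call among the 10 genes against cisplatin alone, while 9.01% of all genes were called lower and 4.21% higher. RACK1 came nearest, at 2482, 2417 and 2984 CPM with Amphotericin B against 2095, 1177 and 1218 CPM with cisplatin, groups that did not overlap, with a log2 difference of 0.81 ± 0.30 (adjusted p = 0.0724). EEF1A1, at 223, 193 and 201 CPM against 190, 137 and 120 CPM, did not overlap either, with a log2 difference of 0.47 ± 0.20 (adjusted p = 0.122). The median difference of the 10 genes was 0.30, against -0.04 for all genes. Without replicate 1 of cisplatin it was 0.65 and 5 of the 10 genes were called higher. After adjustment for mitochondrial ribosomal RNA its sign turned, to -0.11.

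The drug arms were also compared with untreated cells. Tranilast with cisplatin called none of the 10 genes against untreated cells, with 5.66% of all genes lower and 2.44% higher. NPM1 was the one member with an unadjusted p under 0.05, at 742, 762 and 712 CPM against 1181, 1133 and 1087 CPM, a log2 difference of -0.62 ± 0.25 (adjusted p = 0.152). Its groups did not overlap. Tranilast libraries lay entirely below the untreated ones for 5 of the 10 genes, NPM1, EEF1A1, EEF2, NACA and RACK1, and entirely above for 1, EEF1D. Of the 11113 genes tested, 2785 lay entirely below and 2345 entirely above. Telmisartan with cisplatin called EEF1D alone, with a log2 fold change of 0.94 ± 0.28 (adjusted p = 0.0174), where 12.8% of all genes were called higher and 15.8% lower. Its replicate 3, at 374 CPM, lay within the untreated range, and without that library 7 of the 10 genes were called higher. Without replicate 1 of cisplatin 4 were, and without replicate 2 or 3 of the untreated cells or replicate 1 or 2 of Telmisartan none was.

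Amphotericin B with cisplatin called 8 of the 10 genes higher than in untreated cells and none lower, where 17.6% of all genes were called higher and 23.3% lower. The rise was largest for EEF1G, by 1.70 ± 0.51 on the log2 scale (adjusted p = 0.0136), which rests on 6 to 13 counts per library. EEF1D rose by 1.32 ± 0.28 (adjusted p = 0.00146), RACK1 by 1.23 ± 0.30 (adjusted p = 0.00355), TPT1 by 0.995 ± 0.26 (adjusted p = 0.00594) and EEF1B2 by 0.95 ± 0.26 (adjusted p = 0.00725). NACA, PABPC1 and EEF1A1 rose by 0.73, 0.71 and 0.59, with adjusted p from 0.0244 to 0.0290. The libraries of 9 of the 10 genes, all but EEF2, lay entirely above the untreated ones, against 23.4% of all genes. NPM1 had a log2 difference of 0.34 (adjusted p = 0.287) and EEF2 one of 0.03 (adjusted p = 0.926). The median of the 10 genes was 0.84 and that of all genes -0.19. Without replicate 1, 2 or 3 of the untreated cells the count of 8 became 5, 5 or 4, and without replicate 1 of Amphotericin B it became 4. After adjustment for mitochondrial ribosomal RNA, none of the 10 was called higher, 1 was called lower, NPM1, and the median was -0.11. All 3 Amphotericin B libraries have a high share and all untreated ones a low share, so the treatment and that share cannot be told apart in this pair of conditions.

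Between drug arms, 9 of the 10 genes were lower with Tranilast than with Amphotericin B, where 16.4% of all genes were called lower and 19.7% higher. The exception was EEF2, with a log2 difference of -0.21 (adjusted p = 0.400). RACK1 differed by -1.49 ± 0.30 (adjusted p = 0.00186) and NPM1, which was called in no comparison with cisplatin alone or untreated cells, by -0.96 ± 0.25 (adjusted p = 0.00805). All 10 genes had Tranilast libraries entirely below the Amphotericin B libraries, against 23.3% of all genes. After that adjustment none of the 10 was called. The share of mitochondrial ribosomal RNA was 2.10% to 2.53% with Tranilast and 12.3% to 14.8% with Amphotericin B. Treatment and share thus cannot be told apart in this pair either. Tranilast against Telmisartan called none of them, with 1.75% of all genes lower and 0.585% higher, although 8 had an unadjusted p under 0.05, and without replicate 3 of Telmisartan 8 were called lower and without replicate 1 of cisplatin 5 were. Telmisartan against Amphotericin B called none of the 10, none of all genes, and no member with an unadjusted p under 0.05.

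The order of the mean levels was alike in most members. Amphotericin B was the highest condition for all 10 genes, and the lowest was Tranilast for 7 of them and untreated for EEF1D, EEF1G and TPT1. No 2 neighbours in the order of any gene differed past the threshold, the smallest adjusted p between neighbours being 0.0958 for EEF1B2 between untreated cells at 919.5 ± 39.9 CPM (SD, n = 3) and Telmisartan at 1375 ± 508 CPM. The calls above are between conditions further apart in that order.

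EEF2 was the member whose pattern was least like the others. Over the 15 libraries, its log2 level had a median Pearson r of 0.47 with the other 9, against medians from 0.80 to 0.92 for each of the others. These points share library, scaling and condition, so the coefficients are a description. Dividing each gene's count by the EEF2 count of the same library removes any scaling factor. EEF2 was chosen as the denominator after its values were seen. The ratio of EEF1B2 to EEF2 was 0.416, 0.431 and 0.498 in untreated cells, 1.06, 0.868 and 0.690 with cisplatin, and 0.439, 0.461 and 0.472 with Tranilast. It was 0.853, 0.842 and 0.508 after Telmisartan and 0.860, 0.777 and 0.913 after Amphotericin B. All cisplatin ratios were above all untreated and all Tranilast ratios. For EEF1D the ratio was 0.171, 0.172 and 0.177 in untreated cells and 0.537, 0.482 and 0.279 with cisplatin, and 0.228, 0.228 and 0.226 with Tranilast, which lies between them without overlap. In 7 of the 9 genes the cisplatin ratios were all above the untreated ones, with the exceptions EEF1A1 and NPM1. With Telmisartan those of 8 were, with Amphotericin B those of all 9 and with Tranilast those of 3. The Tranilast ratios of 2 genes, NPM1 and NACA, were all below the untreated ones, a count for which the share of all genes was not taken. Of all other genes tested, divided by EEF2 in the same way, 27.5% had ratios entirely above the untreated ones with cisplatin, 26.5% with Telmisartan, 22.1% with Amphotericin B and 32.9% with Tranilast. With 3 libraries against 3, an exact two-sided permutation test cannot give a p below 0.1, and it gave 0.1 for each of these, with a smallest Benjamini-Hochberg adjusted value of 0.124 over the 36 tests of 9 ratios in 4 treated conditions against untreated cells.

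**Figure D3:**
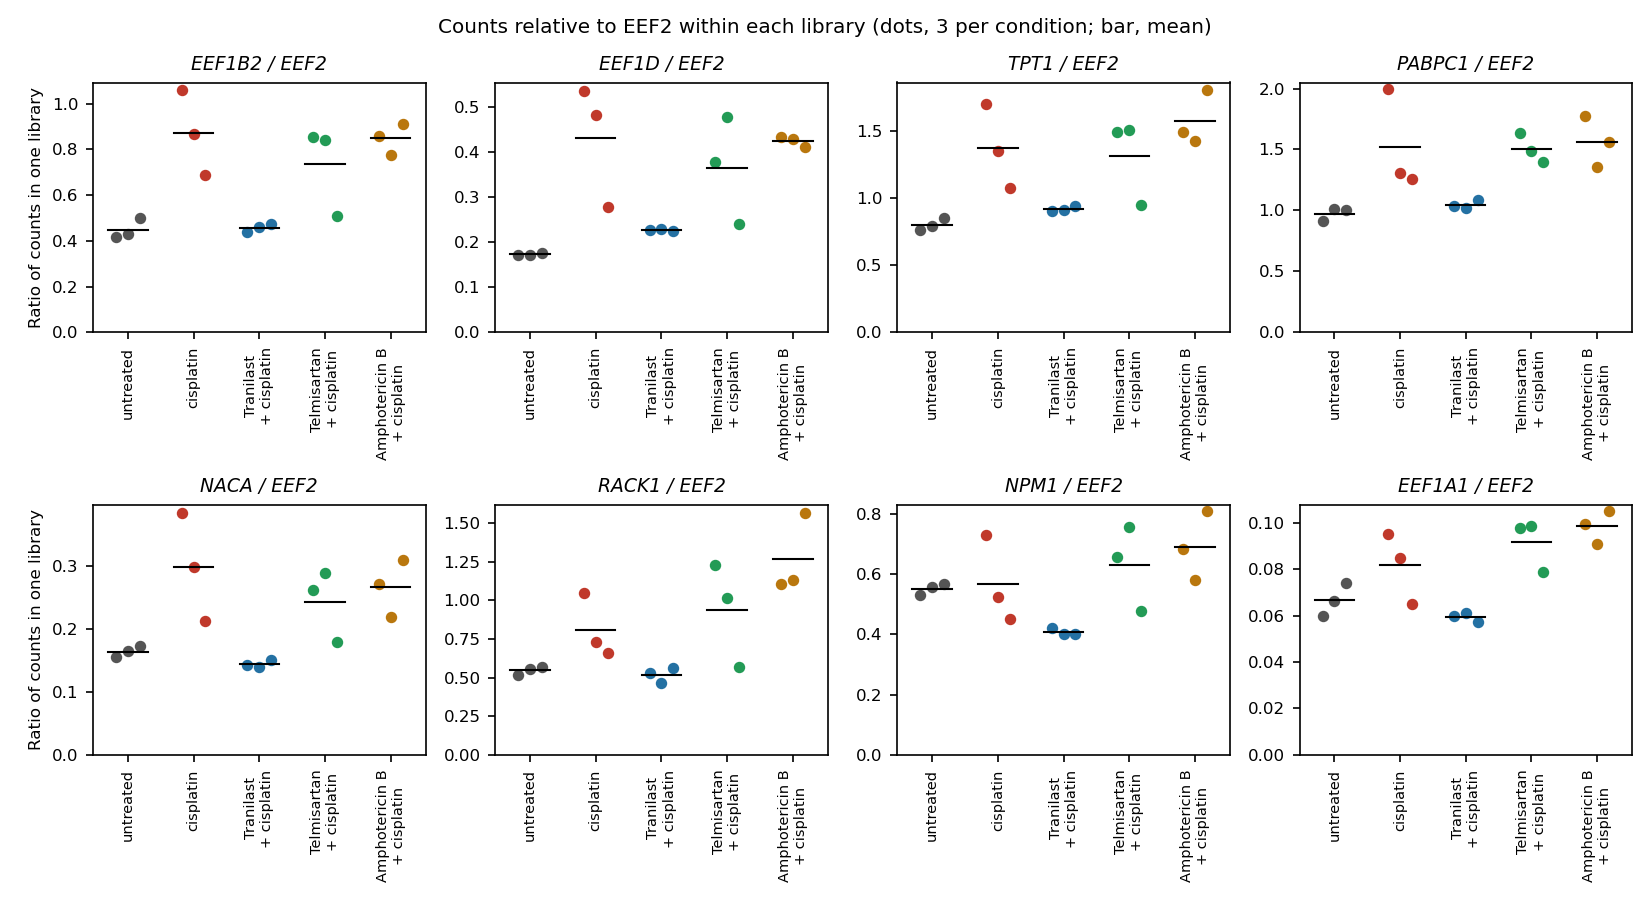
Counts of 8 genes divided by the EEF2 count of the same library (vertical axes, from 0), with a dot for each of 3 libraries per condition and a bar at their mean. EEF1G is left out for its low counts. The EEF1B2 ratio is near 0.448 on average in untreated cells and 0.458 with Tranilast, and 0.873, 0.734 and 0.850 with cisplatin, Telmisartan and Amphotericin B.

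The level of the 10 genes split the libraries as the share of mitochondrial ribosomal RNA did, into a high and a low group. The median over the 10 genes of the log2 difference from the untreated mean was 0.96 in the cisplatin replicate with 13.7% mitochondrial ribosomal RNA, and 0.08 and 0.22 in those with 5.61% and 3.41%. With Telmisartan it was 0.76 and 0.68 in the replicates with 10.8% and 12.9% and -0.19 in the replicate with 3.61%. With Amphotericin B it ran from 0.69 to 1.01, and with Tranilast from -0.23 to -0.09. The libraries above 10% were all higher for the 10 genes, as a median, than the libraries below 6%, whatever their treatment. Within each group the order of the libraries did not follow the share, as the values above show for cisplatin replicates 2 and 3 and for Telmisartan replicates 1 and 2. The part of mitochondrial ribosomal RNA in the differences between conditions was not tested beyond the adjusted fits.

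**Figure D4:**
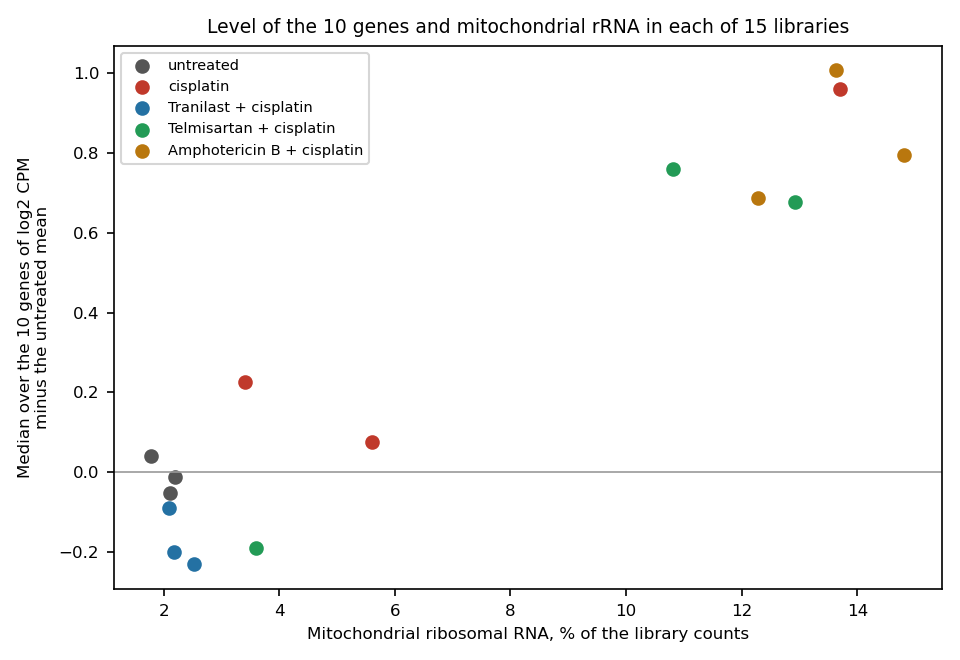
Median over the 10 genes of the log2 level relative to the untreated mean (vertical axis) against the percent of counts from mitochondrial ribosomal RNA (horizontal axis), with a dot for each of the 15 libraries colored by condition. The 6 libraries with more than 10% sit between 0.68 and 1.01, and the other 9 between -0.23 and 0.22.

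The genes outside the set with the most similar pattern, by Pearson r of log2 CPM with the mean of the 10 genes over the 15 libraries, were AP001324.1, a processed pseudogene (r = 0.991), PARK7, a redox-sensitive chaperone (r = 0.991), COX4I1, a subunit of cytochrome c oxidase (r = 0.990), RPL8, a protein of the large ribosomal subunit (r = 0.988), and COX7C, another subunit of cytochrome c oxidase (r = 0.988). The median r of the 11103 genes compared was -0.19. Ribosomal protein genes made up 4 of the 50 most similar genes, and 78 of the 11103 compared.

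Ribosomal protein genes, the main body of the TOP class, had the same directions as the called members, with larger medians than the 10 genes. With cisplatin, 75 of 78 tested rose and none fell, with a median log2 difference of 1.18, and with Tranilast against cisplatin 77 of 78 fell, with a median of -1.27. The smallest adjusted p values belonged to RPSA, which rose by 1.66 ± 0.32 (adjusted p = 0.000485) with cisplatin, and RPL7A, at -1.76 ± 0.34 (adjusted p = 0.00307) with Tranilast. None of the 78 was called with Telmisartan or Amphotericin B against cisplatin. After adjustment for mitochondrial ribosomal RNA, 43 of the 78 were called higher with cisplatin and 63 lower with Tranilast, and without replicate 3 of Tranilast 45 were called lower with Tranilast.

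The other 13 TOP mRNAs were less uniform. With cisplatin 3 rose and 1 fell, where 21.1% of all genes tested were called higher and 23.6% lower. With Tranilast against cisplatin 2 fell, where 11.6% of all genes were called lower. The 3 and the 2 lie near those shares. PFDN5, a prefoldin subunit, rose by 1.39 ± 0.30 (adjusted p = 0.00137) and was lower with Tranilast by -1.45 ± 0.30 (adjusted p = 0.00410). EIF4A2, an initiation helicase, and EIF3F, a subunit of initiation factor 3, rose with cisplatin by 1.01 and 0.78, and EIF4A2 was lower with Tranilast by -0.73 (adjusted p = 0.0408). VIM, the intermediate filament protein vimentin, went the other way, with a log2 difference of -1.09 (adjusted p = 0.00558) with cisplatin and 0.91 (adjusted p = 0.0445) with Amphotericin B against cisplatin.

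Of 17 genes that control TOP mRNAs, 5 were called lower and 2 higher with cisplatin. The shares of all genes called, 23.6% lower and 21.1% higher, are the background for this and the following lists, and these counts lie near them. Against cisplatin the shares were 11.6% lower and 10.5% higher with Tranilast, and 9.01% lower and 4.21% higher with Amphotericin B. MTOR, the kinase of mTORC1, was at 29.2 ± 0.441 CPM (SD, n = 3) in untreated cells and 8.10 ± 4.65 CPM with cisplatin, a log2 difference of -1.88 ± 0.32 (adjusted p = 0.000204), and RPTOR, its scaffold, had one of -2.75 (adjusted p = 0.00540). DDIT4 and SESN2, which restrain mTORC1, had differences of -1.82 (adjusted p = 0.000739) and -1.65 (adjusted p = 0.00506). With Tranilast against cisplatin DDIT4, SESN2 and MTOR were higher by 1.86, 1.79 and 1.02 and none of the 17 was lower. With Amphotericin B, MLST8, a subunit of mTORC1, was higher by 0.99 (adjusted p = 0.00848) and TSC1 and EIF4EBP2 were lower.

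Among 20 tested relatives and modifiers of the elongation factors, 6 rose and 5 fell with cisplatin. DPH2, which starts the synthesis of diphthamide on EEF2, rose by 1.16 ± 0.25 (adjusted p = 0.00126), while DPH5, another enzyme of that pathway, had a difference of -0.78 ± 0.21 (adjusted p = 0.00647). EIF5A, which helps stalled ribosomes, rose by 1.37 (adjusted p = 0.00915). With Tranilast against cisplatin DPH2, DPH3 and EIF5A were lower, by -0.86, -1.10 and -1.15, and EEF1AKMT2, a methyltransferase of EEF1A, was higher by 0.82. EEFSEC, the selenocysteine elongation factor, was the single call with Amphotericin B against cisplatin, where 4.21% of all genes were called higher. It was at low levels, 5.18 against 1.15 CPM, with a log2 difference of 2.19 ± 0.70 (adjusted p = 0.0471).

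Of 13 binding partners, 4 rose and 3 fell with cisplatin. FBL, the methyltransferase fibrillarin, and NPM3, a relative of NPM1, rose by 0.88 (adjusted p = 0.00574) and 0.69 (adjusted p = 0.0288), and both were lower with Tranilast against cisplatin, by -0.74 and -0.95. PAIP2, which competes for PABPC1, rose by 0.79 (adjusted p = 0.00810) and was lower with Tranilast by -0.64. EIF4G3, a scaffold of initiation that binds PABPC1, fell with cisplatin, from 113.5 ± 1.48 CPM in untreated cells to 22.0 ± 21.2 CPM, a log2 difference of -2.41 (adjusted p = 0.000155). Of the 4 mitochondrial elongation factors, GFM1 was called in 3 of the main comparisons, lower with cisplatin by -0.93 (adjusted p = 0.000390) and higher with Tranilast and Amphotericin B against cisplatin by 0.51 and 0.75. The other 3 were not called in any of the 4 main comparisons.

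**Figure D5:**
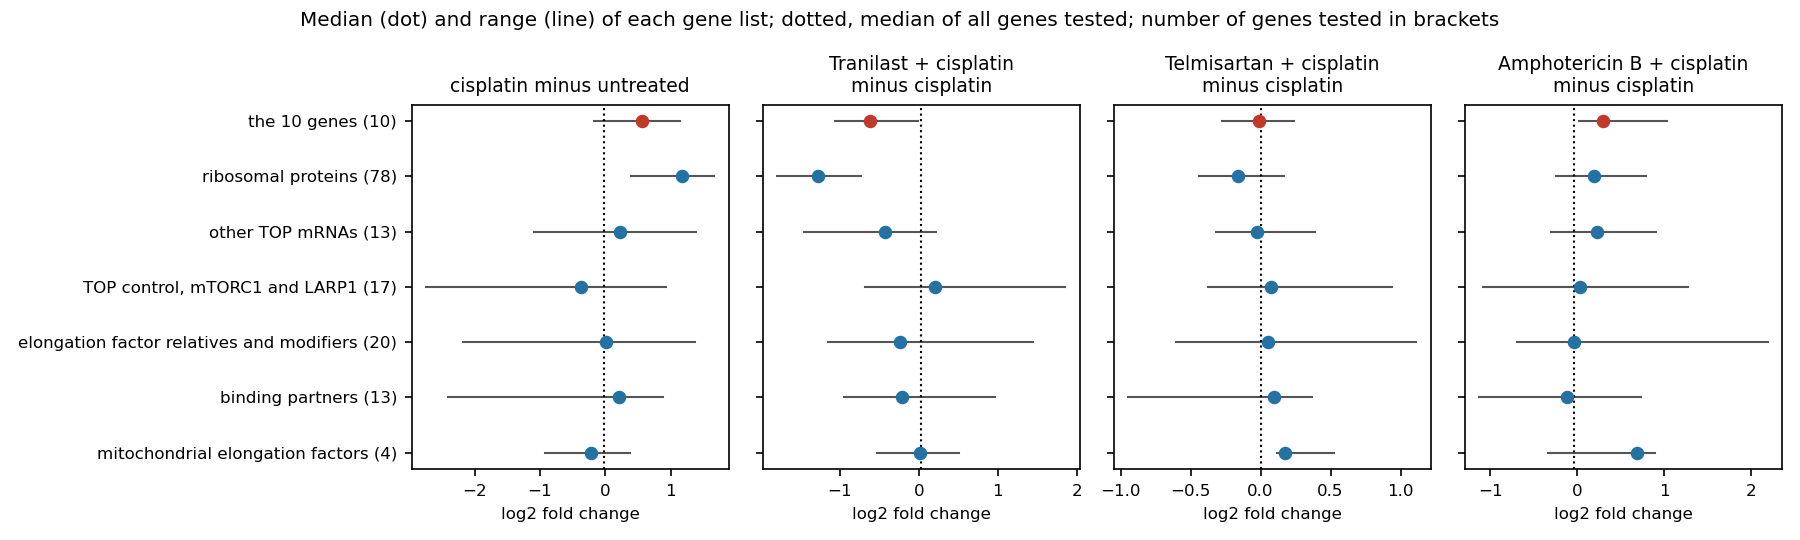
Median (dot) and range (line) of the log2 fold changes of 7 gene lists in the 4 main comparisons, with the median of all 11113 genes as a dotted line. With cisplatin and with Tranilast against cisplatin, the ribosomal proteins lie furthest out, at 1.18 and -1.27, and the 10 genes next, at 0.56 and -0.62.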

How the data were processed

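RNA from 15 IGROV-CP20 cultures was sequenced with a 3′ mRNA kit on a NextSeq500. The authors deposited a table of raw read counts per Ensembl gene for each library. The submitters' processing notes name STAR 2.3.0, HTSeq and hg19. The annotation and the use of strand in counting are not given in the sources used here. Names and positions came from GENCODE 29 and start sequences from RefSeq, both on GRCh38.

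Libraries were grouped by their labels. edgeR 4.0.16 in R 4.3.3 kept 11113 genes (filterByExpr), with TMM factors and a quasi-likelihood fit on all 15 libraries. P was adjusted by Benjamini-Hochberg within each comparison over all genes tested, with a threshold of 0.05. Standard errors and 95% intervals came from that fit, and log2 CPM used a prior count of 2. The pipeline was tested on simulated counts with 200 changed genes. It found 93 of 100 genes changed by 2 on the log2 scale and 45 of 100 changed by 1, with 10 false calls. A difference of 1 or less could thus often go uncalled. Alternatives used DESeq2 1.42.0, limma 3.58.1, other scalings, filters and covariates. Ratios and figures used Python 3.11.15 (scipy 1.17.1, matplotlib 3.10.9).

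The 10 genes and the gene lists were chosen with earlier results of these data known. From each other list, the text names the 2 genes with the smallest adjusted p in each main comparison. Further called genes of those lists, and the markers, were named after their values were seen.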

Additional observations from a re-analysis of the deposited data

How the results depend on the processing

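Depth limits EEF1G most, since a library holds 5 to 15 of its counts, and the shared estimate of the spread limits all 10 genes, since the cisplatin and Telmisartan libraries vary widely. The replicate numbers did not pair the libraries: over 30 same-numbered pairs of conditions the deviations correlated by 0.0200 on average, from -0.235 to 0.631, with 3 pairs over 0.1. The fit with a replicate block gave 3 genes higher with cisplatin, 3 lower with Tranilast against cisplatin, 8 higher with Amphotericin B against untreated cells and 9 lower with Tranilast against Amphotericin B, and it moved no count of called genes. Causes of the changes below were not tested. Counts are of the 10 genes called.

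Every count stayed within 1.5 times with upper quartile and RLE factors, limma-voom, the CPM filter and added pseudogene counts. The same held with TMM factors set without the 10 genes and the ribosomal proteins. With library size alone, 2 genes were lower and 1 higher with cisplatin, 1 was higher with Tranilast against cisplatin and 1 with Amphotericin B against cisplatin, 1 was lower with Telmisartan against untreated cells, 1 was lower and 3 higher with Amphotericin B against untreated cells, and 4 were lower and 1 higher with Tranilast against Amphotericin B. EEF2 then had log2 differences of 0.45 with Tranilast against cisplatin, -0.54 with Amphotericin B against untreated cells and 0.45 with Tranilast against Amphotericin B, opposite in sign to those reported. With mitochondrial ribosomal RNA as a covariate, 1 was lower and 1 higher with cisplatin, 1 was lower with Telmisartan and 1 with Amphotericin B against cisplatin, and against untreated cells 3 were lower with Tranilast, 1 lower and 0 higher with Telmisartan, and 1 lower and 0 higher with Amphotericin B, while 0 were lower with Tranilast against Amphotericin B. That covariate changed the sign of 40 of the 100 differences, among them 8 of 10 with Amphotericin B and 7 of 10 with Telmisartan against untreated cells and 6 of 10 with Amphotericin B against cisplatin. Of differences called with or without it, signs turned for NACA with Amphotericin B against cisplatin (-0.54), for NPM1 with Telmisartan against untreated cells (-0.68), for EEF1A1 (-0.19), EEF1B2 (-0.12), TPT1 (-0.0763), NPM1 (-0.76), PABPC1 (-0.10), NACA (-0.45) and RACK1 (-0.0583) with Amphotericin B against untreated cells, and for EEF1D (0.0803), TPT1 (0.0708), NPM1 (0.12), PABPC1 (0.00756) and NACA (0.0673) with Tranilast against Amphotericin B.

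DESeq2 gave 5 lower with Tranilast against cisplatin, 1 higher with Amphotericin B against cisplatin, 2 higher with Telmisartan against untreated cells and 4 lower with Tranilast against Telmisartan. The likelihood ratio test gave 1 higher with Amphotericin B against cisplatin and 3 lower with Tranilast against Telmisartan. With no filter beyond 1 count, 1 was higher with Amphotericin B against cisplatin, 2 higher with Telmisartan against untreated cells and 4 lower with Tranilast against Telmisartan. Fits of only the 6 libraries compared gave 4 lower and 1 higher with Tranilast against untreated cells. At a threshold of 0.01, 1 was higher with cisplatin, 1 lower with Tranilast against cisplatin, and 0 and 4 were higher with Telmisartan and Amphotericin B against untreated cells.

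Leaving out single libraries gave 1 to 4 higher with cisplatin, 1 to 6 lower with Tranilast against cisplatin, 0 to 5 higher with Amphotericin B against cisplatin, 0 to 1 lower with Tranilast, 0 to 7 higher with Telmisartan and 4 to 8 higher with Amphotericin B against untreated cells, and 0 to 8 lower with Tranilast against Telmisartan. Leaving out replicate 1 of cisplatin and replicate 3 of Telmisartan together, an alternative chosen after seeing the data, gave 1 lower with cisplatin, 5 lower with Tranilast, 5 higher with Telmisartan and 8 higher with Amphotericin B against cisplatin, 3 lower with Tranilast and 8 higher with Telmisartan against untreated cells, and 8 lower with Tranilast against Telmisartan. That pair was picked on mitochondrial ribosomal RNA. Without it the median of the 10 genes was 0.25 with cisplatin, -0.34 with Tranilast and 0.48 with Telmisartan against cisplatin, and -0.09 with Telmisartan against Amphotericin B. TPT1 and PABPC1 then stood at 0.49 and 0.46 with Telmisartan against cisplatin, opposite in sign to the reported values. Of the 5 genes with the most similar pattern, 5 remained with a prior count of 0.5 and 2 with library size alone.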

Other observations

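Genes outside the 10 and the ribosomal proteins that also carry a tract at an annotated start had medians and shares of calls near those of genes without one. Of the genes tested, 600 met the same definition outside the 10 genes and the ribosomal proteins, and 7662 had a start window without a tract. With cisplatin the median log2 difference was -0.09 in the first group and -0.08 in the other, with 16.5% and 19.7% of genes called higher. With Tranilast against cisplatin the medians were 0.03 and 0.07, with 10.3% and 9.79% called lower. With Amphotericin B against untreated cells they were -0.20 and -0.24, with 15.7% and 15.4% called higher. A tract at an annotated start is a match of letters, and the start used in these cells was not measured. Among the ribosomal protein genes 47 of the 63 with a start window met the definition, and among the other TOP mRNAs 7 of 9.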
